A study of Homo sapiens and Mus musculus with 18 samples.

Results

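The change from naïve to primed pluripotency in mouse cells was followed across all genes with enough counts in 4 RNA-seq libraries, 2 of naïve embryonic stem cells (ESCs) and 2 of epiblast-like cells (EpiLCs). The filter on low counts, run on these 4 libraries alone, kept 13623 of the 29720 genes in the deposited mouse table. No measured difference between the groups entered that choice. The whole series holds 18 libraries of human and mouse cells, of which the 4 mouse gastruloid libraries entered the fit and are quoted here only for context. Both groups were E14Tg2a cells, a mouse ESC line widely used for differentiation, with no genetic change named in the labels. The naïve ESCs were grown on a laminin coat in serum-free medium with leukaemia inhibitory factor (LIF), the GSK3 inhibitor CHIR99021 and the MEK inhibitor PD0325901. The EpiLCs were made from them on fibronectin in N2B27 medium with activin A, basic FGF and knockout serum replacement, and were sampled on day 2. The comparison therefore changes the coat, the inhibitors, the growth factors and the serum replacement together. Their parts in any difference below, and that of the time in the new medium, cannot be told apart. Both groups come from 1 line, and the 2 replicates of a group were collected in the same experimental batch, so p-values measure the spread between such replicates. Whether naïve ESCs and EpiLCs shared a batch is not stated, and any batch difference cannot be told apart from the group difference.

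Naïve ESCs stand for the inner cells of the blastocyst before implantation, and EpiLCs for the epiblast shortly after it. Naïve cells are held by a network of transcription factors fed by LIF through STAT3, by WNT signalling that GSK3 inhibition mimics, and by low ERK activity. On leaving that state, cells lose the naïve factors, keep OCT4, turn on formative genes, gain de novo DNA methyltransferases and become a polarized epithelium from which germ layers or germ cells can arise.

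The 4 libraries held 7548807 and 11902627 counts for naïve ESCs and 6667575 and 15050982 for EpiLCs. Per library, the limit that a count of 0 allows lay between 0.195 and 0.437 counts per 1000000 (CPM, scaled by the TMM method), from 3 counts and for counting error only. Replicates were close, with a biological coefficient of variation of 4.29% over the mouse fit. Of the genes with at least 10 CPM, 0 of 8847 differed by more than 2-fold between the naïve replicates, and 1 of 9025 between the EpiLC replicates. The libraries are bulk samples, in which fewer cells of a kind and less RNA per cell cannot be told apart.

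Differentially expressed transcripts (DETs) were genes whose level differed by more than 2-fold in the fit, with p-values from the quasi-likelihood test of edgeR that fell under 0.05 once adjusted over the 13623 genes by the Benjamini-Hochberg method. There were 4133 DETs, or 30.3% of genes tested. EpiLCs were higher for 2408 genes (17.7%) and lower for 1725 (12.7%). Rises thus made up 58.3% of DETs, while the median log2 fold change over all genes was 0.0064. Upper quartile scaling would move that median to 0.107 and the split to 2574 higher and 1552 lower. Large changes were common in both directions. More than 4-fold differences were seen for 1331 higher and 708 lower genes, and more than 64-fold differences for 168 and 86. In 108 of the higher DETs no read was counted in either naïve library, and in 45 of the lower DETs none in either EpiLC library. The 4 libraries separated completely for 4130 of the DETs, and for 83.4% of all genes tested. Without the 2-fold limit, an adjusted p under 0.05 alone was reached by 9602 genes (70.5%).

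**Figure D1:**
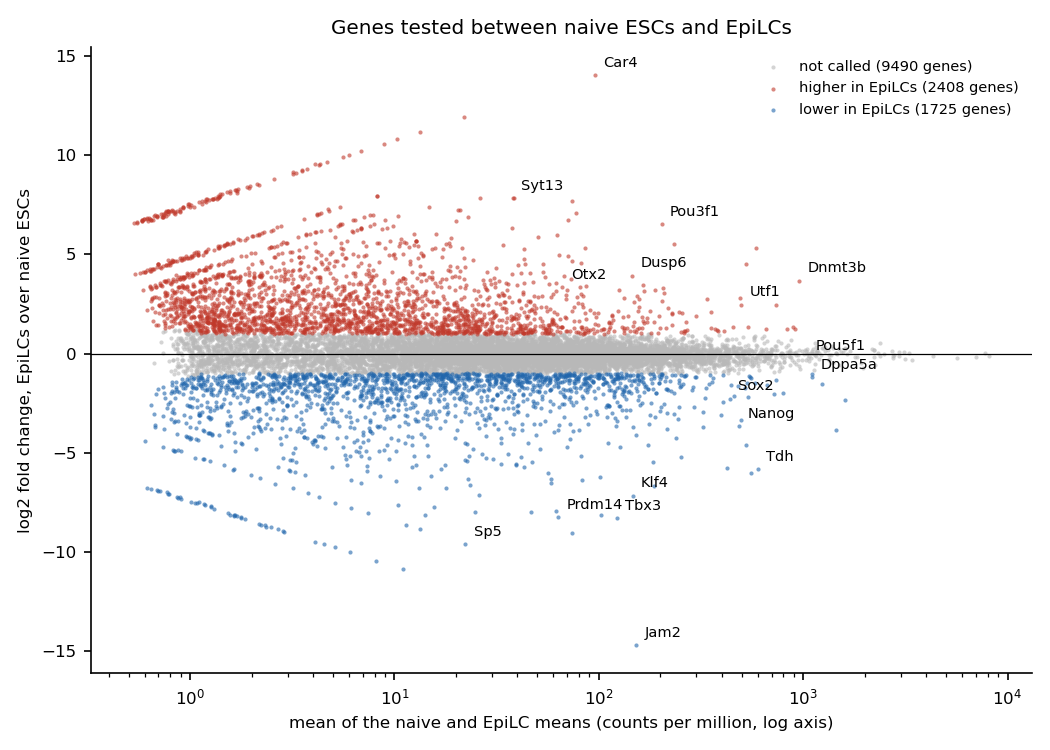
Each point is 1 of the 13623 genes tested, with its mean level in CPM on the x axis (log axis) and its log2 fold change, EpiLCs over naïve ESCs, on the y axis. The 2408 red and 1725 blue points are the DETs, and the slanted rows at the top and bottom left are genes with 0 or few counts in 1 group, whose fold changes depend on the prior count of the fit.

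The clearest on and off pair was Jam2 and Car4, chosen here after their values were seen. Jam2, a junctional adhesion molecule (chromosome 16, GRCm39), was at 305 and 303 CPM in the naïve libraries, and no read was counted in either EpiLC library. It was at least 962-fold lower in EpiLCs, counting 3 reads in each EpiLC library as the limit. Early gastruloids, which were made from naïve ESCs and not from EpiLCs, had a mean of 19.2 CPM. Car4, a membrane-bound carbonic anhydrase on chromosome 11, was the mirror image. No read fell on Car4 in the naïve libraries, and the EpiLC libraries had 196 and 186 CPM, at least 564-fold more. The reads of both genes were not examined here, so loss of reads in alignment or counting was not tested. Further genes with 0 counts in naïve ESCs included Tmem54, a membrane protein gene (42.7 and 44.7 CPM in EpiLCs), and Enpp2, which encodes the lysophospholipase autotaxin (28.7 and 24.4 CPM). Spic, an ETS family transcription factor, went the other way, from 23.3 and 20.5 CPM to 0 counts in both EpiLC libraries.

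The 250 bases before the canonical start of these 2 genes are shown because both switched between 0 counts and well over 100 CPM, and each window holds 8 CpG sites, in capitals. Both were read from GRCm39 on the plus strand, at chr16:84570542-84570791 for Jam2 and chr11:84848116-84848365 for Car4.
Jam2: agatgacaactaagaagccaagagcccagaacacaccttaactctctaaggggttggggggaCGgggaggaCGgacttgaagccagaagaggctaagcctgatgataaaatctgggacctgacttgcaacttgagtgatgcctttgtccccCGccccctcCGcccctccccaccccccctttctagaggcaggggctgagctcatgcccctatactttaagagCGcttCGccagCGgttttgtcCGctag
Car4: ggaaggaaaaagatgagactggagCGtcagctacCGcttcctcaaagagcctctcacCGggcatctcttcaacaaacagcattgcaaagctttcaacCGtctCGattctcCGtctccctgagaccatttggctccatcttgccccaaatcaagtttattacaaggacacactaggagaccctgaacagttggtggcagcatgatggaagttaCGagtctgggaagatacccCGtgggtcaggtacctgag
The ratio of observed to expected CpG was 0.399 before Jam2 and 0.4975 before Car4, against a median of 0.647 over the 13596 genes with such a window.

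Among DETs with at least 10 CPM in the higher group and more than 3 counts in a library of the lower group, the 10 largest rises were in Syt13, Pcdh1, Jph4, Mmp25, Epha1, Enpp3, Mrc2, Pou3f1, Sox4 and Trim67. Syt13, a synaptotagmin, went from 0.551 and 0.176 CPM to 76.8 and 74.6. Jph4, a junctophilin that links surface and internal membranes, went from 0 and 0.44 CPM to 40.5 and 42.4. Mmp25, a membrane-anchored metalloproteinase, had 1.52 and 0.881 CPM in naïve ESCs and 152 and 155 in EpiLCs (log2 fold change 7.07, SE 0.15). Several of the 10 encode surface or membrane proteins, a share that was not compared with that of other genes. All but Pou3f1 were under 2 CPM in naïve ESCs, which a choice by fold change favours. Enpp3, an ectonucleotidase, reached 143 and 138 CPM from 1.65 and 1.06. Epha1, an ephrin receptor, reached 41.8 and 49.3 CPM from 0.551 and 0.264.

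Under the same limits, the 10 largest falls were in Trpm1, Tbx3, Prdm14, Ntn1, Xaf1, Notum, Aqp3, Klf4, Lrrc15 and D630039A03Rik. Ntn1, the secreted guidance cue netrin 1, fell from 213 and 196 CPM to 0.729 and 0.714 (log2 fold change -8.13, SE 0.14). Aqp3, a water and glycerol channel, fell from 121 and 125 CPM to 0.437 and 0.519. Xaf1, an apoptosis-linked gene, fell from 51.5 and 47.0 CPM to 0 and 0.26. The transcription factor genes of naïve pluripotency in this group of 10 are Tbx3, Prdm14 and Klf4.

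Of the 20 transcription factors and cofactors listed for naïve pluripotency, 17 fell, 1 rose and 2 were not called. The share called was 90%, against 30.3% of all genes, and the median log2 fold change was -3.96. Klf4, a Krüppel-like factor, fell from 296 and 285 CPM to 1.31 and 2.34. Esrrb, an orphan nuclear receptor, fell from 1095 and 1098 CPM to 17.9 and 15.8 (log2 fold change -6.05, SE 0.07, adjusted p = 1.8e-39 by edgeR's quasi-likelihood test). Tfcp2l1, a grainyhead-like factor, fell from 819 and 851 CPM to 14.0 and 16.3. In all 3, each EpiLC library lay far below each naïve library. Prdm14, which represses FGF signalling genes, fell from 126 and 127 CPM to 0.146 and 0.519. Tbx3, a T-box factor, went from 242 and 247 CPM to 0.583 and 0.844, and Nr5a2, a nuclear receptor, from 166 and 160 to 1.75 and 2.01. The size of the fall differed widely between members of the network. Nanog kept 65.5 and 75.7 CPM of 907 and 894. Zfp42, better known as Rex1, kept 29.3 and 26.7 of 314 and 335, and Mybl2, a cell cycle factor counted on this list, kept 271 and 281 of 771 and 793. Jun, also counted on this list, rose from 5.24 and 5.46 CPM to 13.1 and 14.7 and so did not mark the naïve cells here. Gbx2, a homeobox gene, had 12.4 and 11.5 CPM in naïve ESCs against 19.8 and 20.6 and Bhlhe40 had 29.6 and 32.5 against 41.3 and 38.2, with log2 differences of 0.78 and 0.33 that were too small to be called.

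The 20 core pluripotency genes moved less, with 2 higher, 3 lower, 15 not called (25% called) and a median of 0.06. Pou5f1, which encodes OCT4, had a log2 fold change of -0.23 (SE 0.05). L1td1, an RNA-binding protein of pluripotent cells, had 933 and 871 CPM in naïve ESCs against 915 and 937. Foxd3 and Dppa2 also had overlapping ranges in the 2 groups. The genes that moved went in both directions. Utf1, a chromatin factor of pluripotent cells, rose from 145 and 159 CPM to 824 and 865. Lin28a, which blocks let-7 processing, rose from 84.5 and 88.0 CPM to 587 and 592 (log2 fold change 2.77, SE 0.05). Dppa5a fell from 1522 and 1563 CPM to 683 and 665, and Sall4, a zinc finger factor, fell by 1.09 on the log2 scale. Sox2 had the largest fall of the list, by 2.28 on the log2 scale.

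Of 34 genes listed for the formative and primed states, 26 rose, 2 fell and 6 were not called (82.4% called, median 3.28). Pou3f1, the POU factor OCT6, rose from 3.17 and 5.11 CPM to 394 and 408. Otx2, which with OCT4 redirects enhancer use in these cells, rose from 10.5 and 12.6 CPM to 127 and 116. Fgf5, the classic marker of the primed epiblast, had 2 counts in each naïve library and 54.4 and 49.6 CPM in EpiLCs. For each of these 3 markers both EpiLC libraries lay far above both naïve libraries. Pim2, a serine/threonine kinase, rose from 27.8 and 29.1 CPM to 1150.2 and 1135. Sox4, Sox11 and Sox3, SoxC and SoxB1 factors of early differentiation, rose by 6.33, 3.89 and 3.21 on the log2 scale. Foxp1, Sall2, Lin28b and Grhl2 also rose, by 3.56 to 5.46. Other genes linked to the post-implantation epiblast did not follow. Cdh2, or N-cadherin, fell from 15.0 and 13.3 CPM to 3.06 and 2.99, and Sall3 fell by 5.23 on the log2 scale. Zic2, Zic5, Fst, Tead2, Epha2 and Ephb6 were not called, and Epha2 had 207 and 218 CPM in naïve ESCs against 208 and 224.

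**Figure D2:**
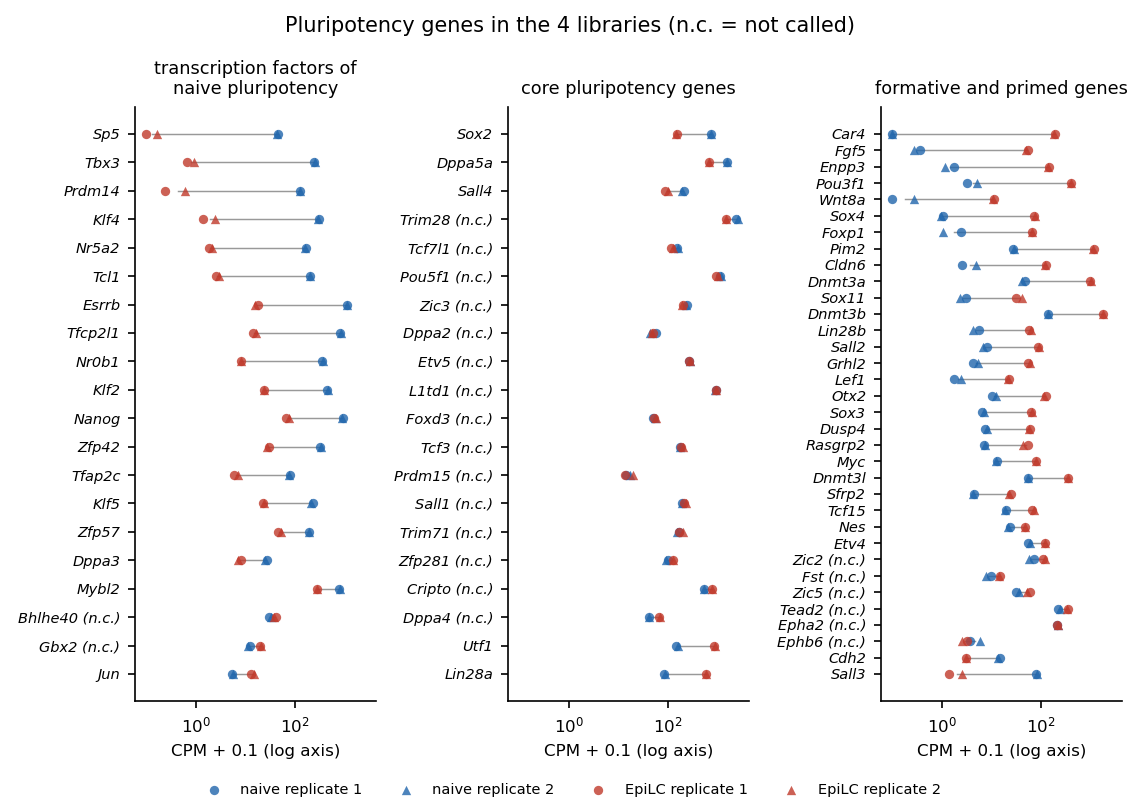
Each row is 1 gene and each marker 1 library, with its level in CPM plus 0.1 on a log axis, naïve ESCs in blue and EpiLCs in red, and a grey line joining the group means. Naïve factors shift to the left in EpiLCs, from 907 and 894 to 65.5 and 75.7 CPM for Nanog, most core genes stay in place, and most formative genes shift to the right.

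LIF was in the naïve medium only, as far as the culture methods name it. LIF binds a receptor made of LIFR and gp130 (Il6st), which activates STAT3. Of 16 genes of this pathway tested, 5 fell, 0 rose and 11 were not called (median -0.39). The share called, 31.2%, was near the 30.3% of all genes. At adjusted p alone, 9 were lower and 3 higher in the same edgeR test. Both receptor chains fell, Il6st from 207 and 205 CPM to 24.5 and 26.9 and Lifr from 37.6 and 35.8 to 7.29 and 7.07. Stat3 fell from 105 and 109 CPM to 25.9 and 25.8. Socs3, the feedback inhibitor that STAT3 induces, fell from 50.8 and 49.9 CPM to 3.21 and 6.1 (log2 fold change -3.28, SE 0.14). Jak1, the receptor's kinase, had a log2 difference of -0.45 and the STAT3 target Pim1 one of 0.44, neither called.

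MEK was inhibited in the naïve medium, and FGF was added to the EpiLC medium. Of 34 FGF and ERK genes tested, 14 rose, 2 fell and 18 were not called (47.1% called, median 0.62). Some feedback inhibitors of the pathway rose and others were not called. Dusp6, an ERK phosphatase, rose from 16.7 and 18.8 CPM to 278 and 267 (log2 fold change 3.93, SE 0.08). Spry4 rose from 5.65 and 4.67 CPM to 49.1 and 43.2, and Spred1 from 19.0 and 21.0 to 99.6 and 90.1. Dusp4, Spred3, Spry1 and the immediate early gene Egr1 rose as well, by 1.27 to 3.65 on the log2 scale. Not every target moved. Spry2, Spred2, Dusp5, Dusp14, Il17rd and Etv5 were not called, and Etv5 had 259 and 275 CPM in naïve ESCs against 264 and 275. Among the ligands, Fgf15 rose from 2.62 and 0.793 CPM to 26.8 and 22.8, Fgf10 went from 4.82 and 5.11 CPM to 0 counts, and Fgf4, the main autocrine FGF of ESCs, had 351 and 371 CPM against 289 and 291, which was not called. The receptors Fgfr1 and Fgfr2 were not called.

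GSK3 was inhibited in the naïve medium, which stabilizes beta-catenin. Of 38 WNT genes tested, 10 rose and 12 fell (57.9% called), with a median of -0.08. With at least 10 counts in each of the 4 libraries, 6 were higher and 7 lower. Axin2, the general feedback target, fell from 43.3 and 45.0 CPM to 4.66 and 6.23 (log2 fold change -2.95, SE 0.13). Notum, a secreted deacylase that inactivates WNT proteins, fell from 92.9 and 93.5 CPM to 0.437 and 0.324. Sp5, a zinc finger target gene, had 44.6 and 44.0 CPM in naïve ESCs, and 0 and 1 counts in the EpiLC libraries. Cdx1, a caudal homeobox gene, fell from 34.4 and 36.1 CPM to 0.437 and 0.26. Sfrp1, an extracellular WNT antagonist, fell from 341 and 337 CPM to 38.5 and 35.9, and Porcn, needed to make active WNT proteins, from 15.6 and 17.4 to 3.94 and 5.06. Other target and pathway genes rose. Lef1, the nuclear partner of beta-catenin, rose from 1.65 and 2.38 CPM to 22.6 and 22.1, and Nkd1, a feedback inhibitor, from 1.65 and 1.15 to 9.91 and 11.3. Receptors split, with Fzd2 rising from 4.55 and 5.64 CPM to 87.5 and 86.4, Fzd7 by 1.35 on the log2 scale, and Fzd5 and Fzd10 falling by 1.78 and 2.46. Of the ligands, Wnt3 rose from 0.827 and 0.969 CPM to 11.5 and 10.8, and Wnt8a had 0 and 2 counts in naïve ESCs and 11.2 and 10.7 CPM in EpiLCs.

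The letters CTTTGAT, part of the TCF and LEF consensus, were searched on both strands of the 250 bases before each start. They were found for 2.36% of all genes tested, 3.03% of genes lower in EpiLCs, 2.12% of genes higher in EpiLCs and 6 of the 38 WNT genes. Those 6 were Sp5, Notum and Cdx1, which fell, Nkd1 and Wnt8a, which rose, and Lrp6, which was not called. The promoters of Notum and Sp5 are printed because both genes all but lost their reads in EpiLCs and both hold these letters, in capitals. They lie at chr11:120552020-120552269 on the minus strand and chr2:70305017-70305266 on the plus strand of GRCm39.
Notum: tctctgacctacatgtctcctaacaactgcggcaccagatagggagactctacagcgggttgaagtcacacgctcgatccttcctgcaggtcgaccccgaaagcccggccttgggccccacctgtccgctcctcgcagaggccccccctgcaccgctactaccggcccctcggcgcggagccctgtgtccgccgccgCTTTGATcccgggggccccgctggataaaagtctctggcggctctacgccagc
Sp5: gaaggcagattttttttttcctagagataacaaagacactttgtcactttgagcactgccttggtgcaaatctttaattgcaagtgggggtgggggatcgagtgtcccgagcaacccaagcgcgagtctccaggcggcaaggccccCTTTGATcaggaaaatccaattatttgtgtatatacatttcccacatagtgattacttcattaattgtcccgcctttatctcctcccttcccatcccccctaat
The match began 53 bases before the start in Notum and 104 in Sp5. A match is a description of the letters and was not tested as a binding site.

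**Figure D3:**
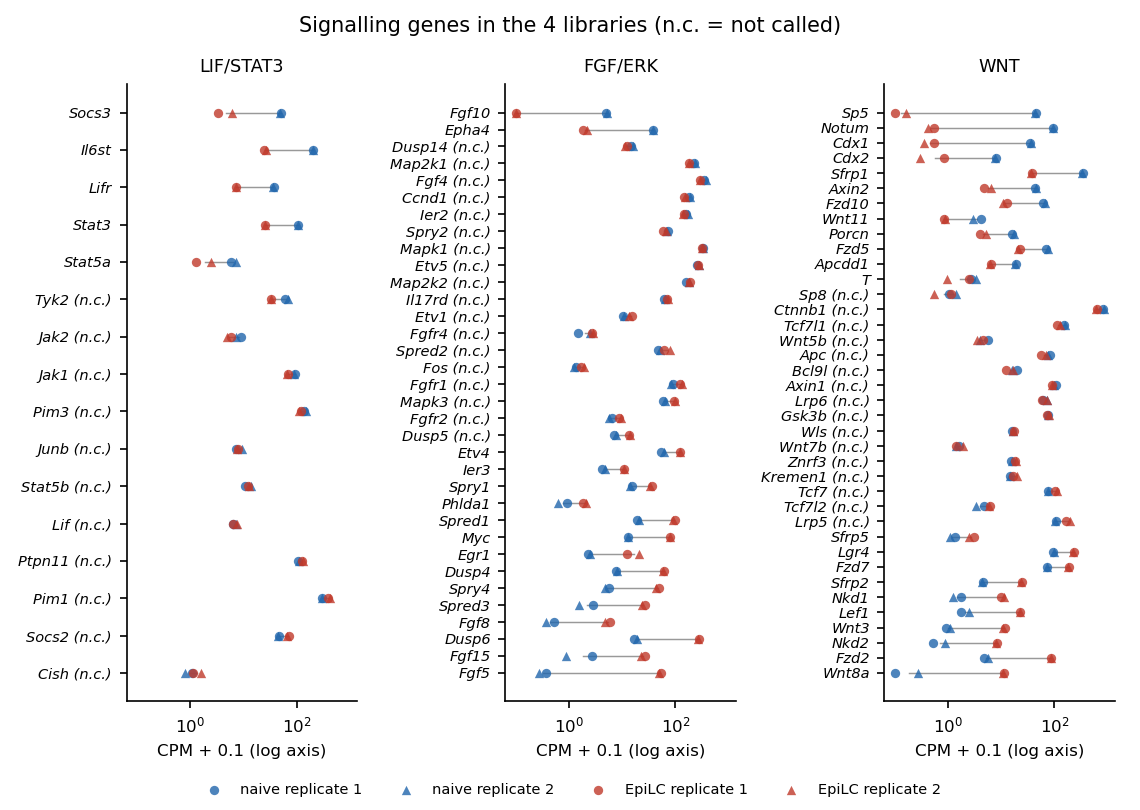
Levels of LIF/STAT3, FGF/ERK and WNT genes in the 4 libraries, in CPM plus 0.1 on a log axis, naïve ESCs in blue and EpiLCs in red, with a grey line joining the group means. Genes run from the lowest to the highest log2 fold change, and Dusp6, at 16.7 and 18.8 CPM in naïve ESCs, sits at 278 and 267 in EpiLCs.

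Activin was added to the EpiLC medium and signals like NODAL through SMAD proteins. Of 21 genes of that pathway tested, 2 rose and 3 fell (23.8% called, median -0.11). Skil, a feedback repressor, rose from 45.7 and 38.7 CPM to 261 and 249. Lefty2, a feedback antagonist, fell from 720.0 and 736 CPM to 235 and 232, while its neighbour Lefty1 had 184 and 202 CPM against 299.6 and 291 and was not called. Nodal itself was at 127 and 130.5 CPM in naïve ESCs and 121 and 118 in EpiLCs. Of 22 BMP genes tested, 6 rose and 9 fell (68.2% called, against 30.3% of all genes, median 0.0042). The largest fall was in Id4, an inhibitor of helix-loop-helix factors, from 48.8 and 41.7 CPM to 0.437 and 0.584. The ligand Bmp4 fell from 7.3 and 9.87 CPM to 4.23 and 2.4. Id1 and Id3, general BMP targets, fell as well, from levels under 10 CPM, and Id2 rose. At 10 counts or more in each of the 4 libraries, 0 of the BMP genes were higher and 3 were lower.

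The de novo DNA methyltransferases rose together. Of 22 genes that write, erase or read DNA methylation or protect imprints, 5 rose, 4 fell and 13 were not called (40.9% called). Dnmt3b rose from 141 and 137 CPM to 1758 and 1797 (log2 fold change 3.68, SE 0.05). Dnmt3a rose from 47.9 and 41.7 CPM to 982 and 1024, and Dnmt3l, their catalytically inactive cofactor, from 55.9 in both libraries to 358 and 343. The maintenance pair showed no such change, since Dnmt1 had 490.1 and 457 CPM against 299 and 357 and Uhrf1 had 560.1 and 555 against 299 and 326, log2 differences of -0.52 and -0.83 that were not called. Among enzymes that oxidize the mark, Tet2 fell from 56.2 and 48.0 CPM to 4.52 and 7.2 and Tet1 was not called. Zfp57, which guards imprints, fell from 189 and 188 CPM to 45.6 and 51.5, and Dppa3, which limits maintenance methylation, from 27.4 and 24.3 to 8.02 and 7.14. Genes of the germline program, many of them held silent by promoter methylation in somatic cells, were mostly higher. Of 32 tested, 17 rose, 3 fell and 12 were not called (62.5% called, median 1.18). Mael, a piRNA pathway gene, rose from 2.34 and 4.4 CPM to 89.1 and 78.6. Ddx4, the germ cell helicase, rose from 5.65 and 6.61 CPM to 30.03 and 35.6, Smc1b, a meiotic cohesin, from 4.41 and 4.49 to 27.7 and 27.6, and Taf7l from 1.79 and 2.11 to 27.7 and 25.6. Tdrd1, Piwil2, Sycp1, Sycp3 and Mov10l1 rose too. Kit, the stem cell factor receptor, fell from 250.5 and 238 CPM to 10.2 and 8.96, and Dazl, an RNA-binding protein of germ cells, was not called. In late gastruloids the mean of Mael was 2.59 CPM and that of Taf7l 0.243. The promoter windows of the germline genes had a median CpG ratio of 0.612, near the median of 0.647 over all genes.

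The genes of antigen presentation by MHC class I were listed after their values were seen. Of 16 tested, 11 rose, 0 fell and 5 were not called (68.75% called, against 30.3% of all genes). H2-K1, a class I heavy chain, rose from 5.92 and 7.31 CPM to 79.3 and 80.5. Tap1, a subunit of the peptide transporter, rose from 3.03 and 2.99 CPM to 29.4 and 31.9, and Psmb10, a subunit of the immunoproteasome, from 8.13 and 9.34 to 74.9 and 77.0. Psmb8 had 0 counts in naïve ESCs and 7.87 and 5.32 CPM in EpiLCs. The light chain B2m did not follow, with 11.2 and 12.2 CPM against 16.8 and 11.5. Near-identical class I genes share reads, so H2-K1 and H2-D1 are uncertain as single genes.

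**Figure D4:**
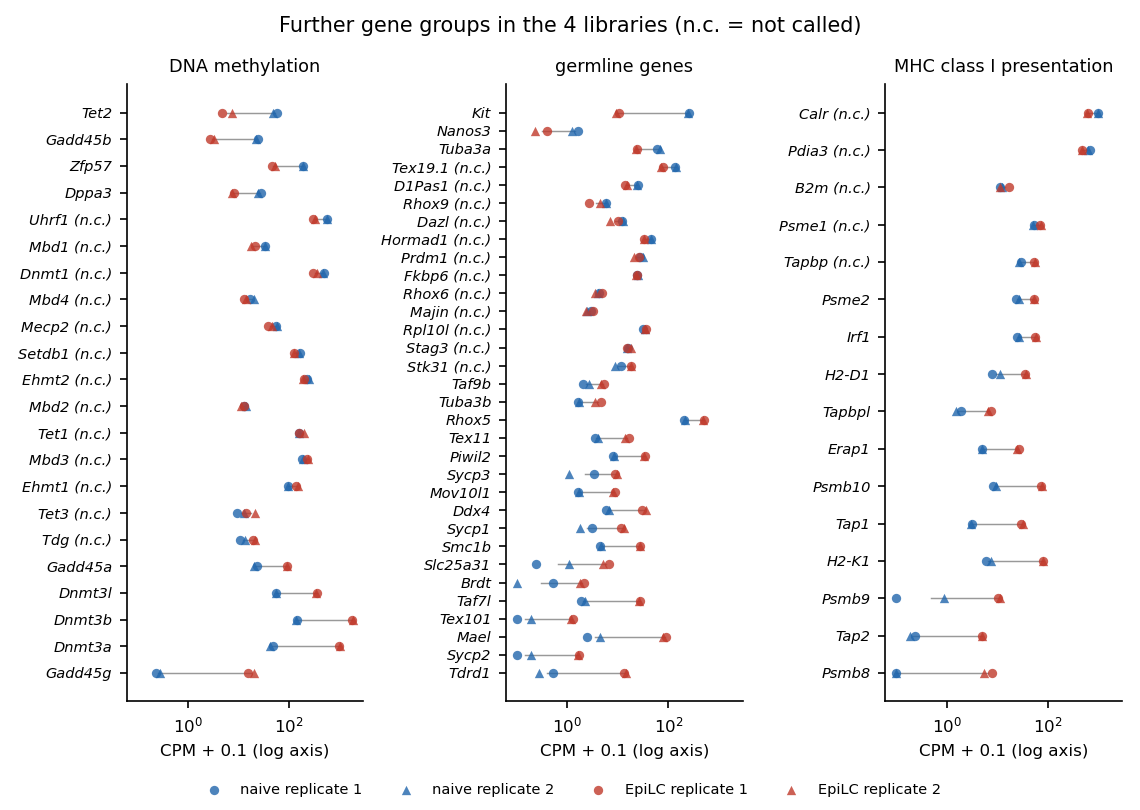
Levels of genes for DNA methylation, the germline and MHC class I presentation in the 4 libraries, in CPM plus 0.1 on a log axis, naïve ESCs in blue and EpiLCs in red, with a grey line joining the group means. Dnmt3a, Dnmt3b and Dnmt3l, Mael and H2-K1 lie to the right in both EpiLC libraries, while Kit moves from 250.5 and 238 CPM to 10.2 and 8.96.

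Many epithelial genes rose in EpiLCs, while several matrix and mesenchymal genes fell. Of 34 genes of epithelia and of the epithelial-mesenchymal transition, 17 rose, 7 fell and 10 were not called (70.6% called, median 0.95). Their summed level went from 6962 and 7006 CPM to 5417 and 5796. Esrp1, which sets epithelial splicing, rose from 1.52 and 2.2 CPM to 121 and 125. Krt18, a simple epithelial keratin, rose from 2.89 and 1.76 CPM to 80.9 and 87.4 and its partner Krt8 from 3.72 and 4.93 to 13.8 and 12.1. The tight junction genes Cldn6 and Cldn7 rose from 2.48 and 4.84 and from 2.89 and 3.08 CPM to 126 and 122 and to 83.8 and 81.7. Crb3 and Cgn, of the apical and junctional complexes, and Epcam, an epithelial adhesion molecule, rose by 3.22, 4.17 and 2.31 on the log2 scale. Cdh1, or E-cadherin, was at 581 and 589 CPM in naïve ESCs and 889.7 and 948 in EpiLCs, a log2 difference of 0.65 that was not called. Genes usually named as mesenchymal fell or rose singly. Vim, an intermediate filament gene, fell from 554 and 593 CPM to 79.7 and 70.3, Zeb1 from 34.7 and 30.1 to 2.19 and 3.44, and Twist1 rose from 1.24 and 2.29 to 5.98 and 8.44. Matrix genes moved both ways, in cultures whose coat also differed. Fn1, or fibronectin, fell from 2660.0 and 2693 CPM to 494 and 542, Lamc1 from 994 and 1001 to 308 and 347 and Lama1 from 117 and 119 to 6.71 and 8.76, while Lamb1 rose from 32.9 and 39.9 to 338 and 344.

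Energy genes showed a few large single changes, and many nuclear genes of oxidative phosphorylation were lower by less than 2-fold. Of 24 glycolysis genes, 2 rose and 4 fell (25% called). Slc2a3, the glucose transporter GLUT3, fell from 2682 and 2759 CPM to 191 and 185 (log2 fold change -3.85, SE 0.05). Hk1, Pfkp and Ldhb fell by 1.26, 2.71 and 1.49 on the log2 scale. Slc16a3, the lactate exporter MCT4, rose from 135 in both libraries to 579 and 566. Among 76 nuclear genes of oxidative phosphorylation, 0 rose and 2 fell, Ndufb4 and Cox5a (2.63% called, against 30.3% of all genes), and the median was -0.25. Without EpiLC replicate 1, with upper quartile scaling or with 10 counts in each library, 1 fell. At adjusted p alone, 46 were lower and 6 higher, against 34.8% lower and 35.7% higher over all genes. Of 7 genes of the mitochondrial genome tested, 0 were called, with 2 higher and 3 lower at adjusted p alone. Tdh, threonine dehydrogenase, on which mouse ESCs depend, fell from 1170.0 and 1193 CPM to 21.0 and 20.5. Among the other 22 genes of threonine, serine and one-carbon metabolism, Shmt1, Aldh1l1 and Nnmt fell, Mthfd2 rose from 226 and 235 CPM to 537 and 519, and Mthfd2l rose from 1.24 and 1.67 to 3.64 and 4.02.

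Sterol genes were called about as often as all genes, and most of the lysosome genes called were lower. Of 26 genes of cholesterol synthesis and its control, 7 rose, 1 fell and 18 were not called, close to the 30.3% of all genes, with a median of 0.68. At adjusted p alone, 25 of the 26 were higher, against 35.7% of all genes. Lss, lanosterol synthase, rose from 95.2 and 91.1 CPM to 407 and 394, and Fdps, farnesyl diphosphate synthase, from 125 and 137 to 419.55 and 382. Ebp, a sterol isomerase, fell from 144 and 136 CPM to 36.7 and 35.6. Of 30 genes of lysosomes and their regulators, 11 fell, 1 rose and 18 were not called (40% called, median -0.77). Tfeb and Mitf, relatives of TFE3, fell from 97.4 and 103 CPM to 9.62 and 9.15 and from 20.4 and 26.3 to 1.02 and 0.909. Tfe3 itself had 234 and 248 CPM against 228 and 237 (log2 difference -0.05, SE 0.06). Ctsa, Ctsb, Npc2, Lamp2, Hexa, Gaa and Gla fell by 1.34 to 2.18 on the log2 scale. Laptm4b, a lysosomal membrane protein gene, rose from 11.4 and 12.9 CPM to 118 and 105.

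The palindrome TCACGTGA, an E-box that TFE family factors recognize, was found in the same 250-base windows of 1.02% of all genes and of 3 of the 30 lysosome genes. Gla, alpha-galactosidase A, is among these 3 and fell from 61.0 and 64.0 CPM to 20.3 and 21.0. Its window is shown because it holds the palindrome in 2 copies, in capitals, which began 78 and 45 bases before the start. It was read from the minus strand of GRCm39 at chrX:133501905-133502154.
Gla: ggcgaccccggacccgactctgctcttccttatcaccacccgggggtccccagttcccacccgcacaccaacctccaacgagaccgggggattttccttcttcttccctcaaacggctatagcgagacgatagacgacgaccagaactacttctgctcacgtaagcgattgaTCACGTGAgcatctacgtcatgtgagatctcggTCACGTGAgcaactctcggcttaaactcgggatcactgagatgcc

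Of 24 genes that govern the G1 phase, 4 rose and 3 fell (29.2% called), near the share of all genes. D-type cyclins split. Ccnd2 rose from 0.827 and 2.03 CPM to 37.3 and 47.3, Ccnd3 fell from 366 and 375 to 97.4 and 89.9, and Ccnd1 was not called. Myc, a driver of growth genes, rose from 12.7 and 12.5 CPM to 79.4 and 79.0. Of the inhibitors, Cdkn1c rose from 4.55 and 3.7 CPM to 41.1 and 39.6 and Cdkn1a fell by 1.25 on the log2 scale. Of 24 genes of guidance cues, their receptors and the linked cytoskeleton, 6 rose and 9 fell (62.5% called), with 5 lower under the filter of 10 counts in each library. Nrp2, a semaphorin receptor, fell from 88.3 and 81.5 CPM to 1.17 and 1.82, Slit2 from 44.1 and 45.8 to 1.46 and 1.17 and Epha4 from 37.1 and 38.1 to 1.75 and 2.08. Sema6a rose from 0.276 and 0.264 CPM to 36.2 and 45.1 and Efnb2 from 1.79 and 1.85 to 39.7 and 37.4. Of 10 protocadherin and synaptotagmin genes, a list drawn up because Syt13 and Pcdh1 were known to lead the rises, 7 rose and 1 fell (80% called, against 30.3% of all genes). Only 1 rise was left with at least 10 counts in each library, since most members had few counts in naïve ESCs. Pcdh19 fell from 33.6 and 29.1 CPM to 2.04 and 2.4, and Syt11 rose from 4.96 and 4.84 to 27.4 and 29.1.

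On the scale of transcripts per 1000000 (TPM), which corrects for gene length, the largest gains were in Bc1, Utf1, Ddit4, Pim2, Dusp9, Dnmt3b, Fth1, Rhox5, Mt2 and Odc1. Utf1 gained most among protein-coding genes, from 399 and 428 TPM to 2390.4 and 2537. Ddit4, an inhibitor of mTORC1, went from 237 and 234 TPM to 1750.5 and 1749, and Dusp9, a phosphatase of ERK, from 270.2 and 281 to 1654 and 1628. Bc1, a short neuronal RNA made by RNA polymerase III, went from 724 and 696 TPM to 3549 and 2777. Its short exon length of 173 bases raises its place on this scale, and its CPM went from 37.1 and 36.6 to 172 and 134. Bc1 and Fth1 have many related copies in the genome, and Rhox5 belongs to a clustered family, so reads lost to other copies make their levels uncertain. The largest losses were in Dppa5a, Spp1, Tdh, Apoe, Asns, Nanog, Slc2a3, Ckb, Sox2 and Epop. Dppa5a, a small RNA-binding protein, fell from 8305 and 8313 TPM to 3927 and 3868. Spp1, the secreted protein osteopontin, fell from 1881 and 1778 TPM to 194 and 192, Ckb, brain creatine kinase, from 1124 and 1198 to 48.2 and 51.5, and Epop, which tempers Polycomb activity, from 1079 and 1082 to 255 and 262.

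Markers of cell types outside the epiblast were checked in the same libraries. Of 15 primitive endoderm markers, 7 were tested, 2 rose and 4 fell, and their summed level was 925 and 947.5 CPM in naïve ESCs and 276 and 277 in EpiLCs. Sparc carried most of that sum, and the defining Gata6, Sox17 and Gata4 were at or under 2.2 CPM in every library. Dab2 and Col4a1 were the 2 that rose. Of 12 trophectoderm markers, 9 were tested, 2 rose and 6 fell, summing to 116 and 113 against 30.5 and 29.5 CPM. Cdx2, also a WNT target, fell from 7.72 and 7.58 CPM to 0.729 and 0.195, Gata3 fell by 1.37 on the log2 scale, and Elf5 had 0 counts in both naïve libraries and at most 0.146 CPM in EpiLCs. Tead4, a Hippo pathway factor, fell from 65.2 and 62.4 CPM to 2.33 and 3.05. Gata2, Tfap2a and Plet1 fell too, while Krt7 and Ascl2 were the 2 that rose. Of 15 neural markers, 6 were tested, 3 rose and 2 fell, and Sox1, an early neural factor, rose from 2.34 and 2.38 CPM to 12.4 and 15.9. Pax6, also a defining marker, and Neurod1 rose as well, while Tubb3 and Lhx2 fell. Of 12 fibroblast markers, 7 were tested, 4 rose and 2 fell, with sums of 19.2 and 22.9 CPM against 40.5 and 43.9. Thy1 alone held 20.4 and 24.5 CPM of the EpiLC sums, while Col3a1 had 0 counts in 3 of the 4 libraries and at most 0.13 CPM. Acta2, Dcn and the defining Col1a2 also rose, while Fbln2 and the defining Col1a1 fell. Without naïve replicate 2 or EpiLC replicate 1, 1 of the fibroblast markers fell. With at least 10 counts in each library, 1 marker of primitive endoderm, 1 of trophectoderm, 1 of neural cells and 2 of fibroblasts were higher, and 2, 2, 1 and 1 were lower. In the same order, 85.7%, 88.9%, 83.3% and 85.7% of the markers tested were called, against 30.3% of all genes. A gene low in 1 group can pass the count filter through the other alone, which can raise such shares. The part of such cells in the falls of Lama1 and Sparc or in the rises of Sox1, Pax6 and Col1a2 was not tested. Genes of 2-cell-like cells, a rare state in ESC cultures, summed to between 0.264 and 0.973 CPM, and 0 of the 11 in the table passed the filter. Of 25 primitive streak and germ layer genes, 12 were tested, 4 rose and 6 fell (83.3% called, against 30.3% of all genes). Their summed level went from 90.25 and 92.31 CPM to 42.86 and 37.83. The count filter can raise this share as well.

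**Figure D5:**
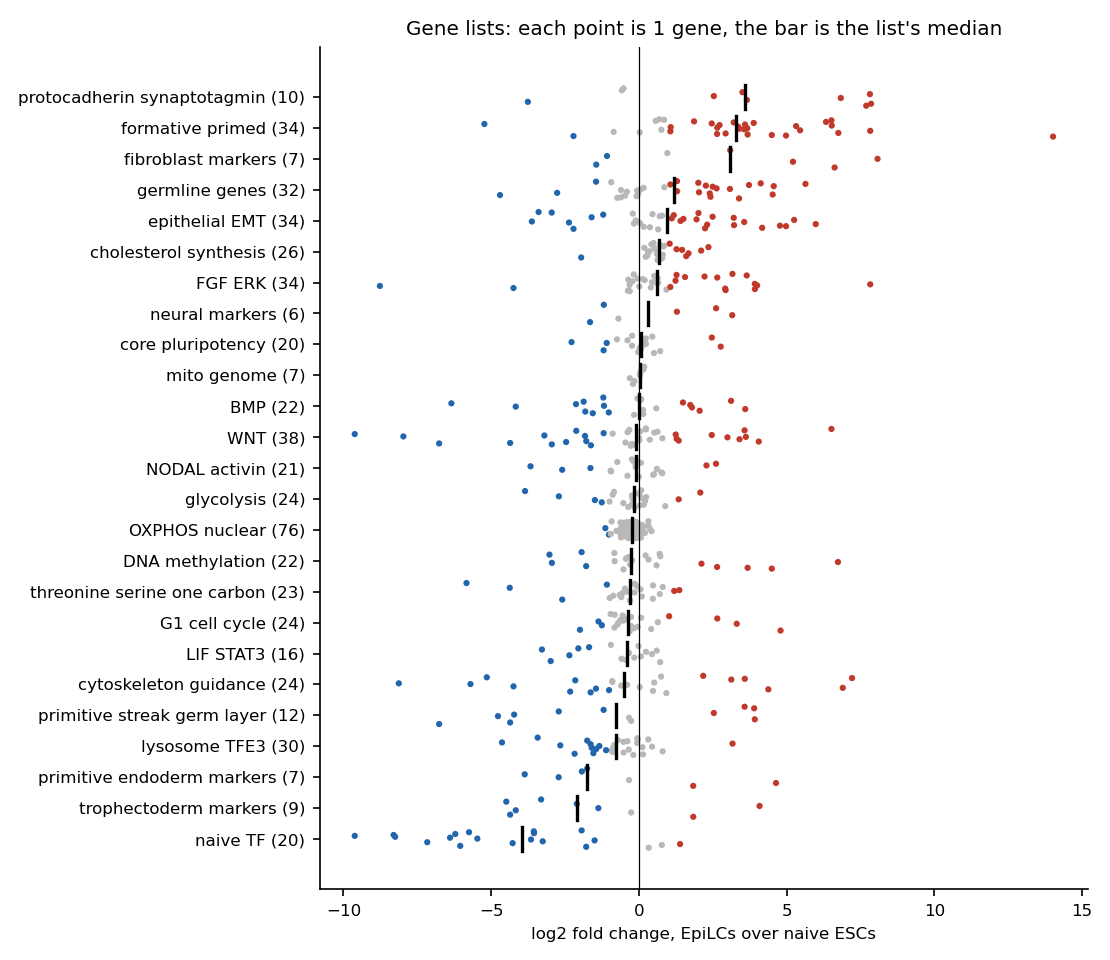
Each point is the log2 fold change, EpiLCs over naïve ESCs, of 1 gene in a list, red where higher and blue where lower among DETs and grey where not called, with the list's median as a black bar and the number of genes tested in brackets. Medians run from -3.96 for the naïve factors to 3.58 for the protocadherin and synaptotagmin list. The latter list was drawn up because Syt13 and Pcdh1 were known to lead the rises.

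DETs in both directions had CpG-poorer promoters than the genes tested as a whole. The median ratio of observed to expected CpG in the 250 bases before the start was 0.529 for genes higher in EpiLCs and 0.501 for genes lower, against 0.647 over all. A ratio above 0.6 was seen for 41.4% and 37.8% of the 2 groups of DETs and for 56.1% of all genes. The GC content varied less, with medians of 57.2%, 55.2% and 56.8%. Median exon lengths were 4172, 3869.5 and 4308 bases. Of 8 motifs searched, GGGNGTGG, a KLF site, was in the windows of 24.1% of higher, 19.8% of lower and 19.7% of all genes, and ATGCAAAT, the octamer bound by POU factors, in 1.46%, 1.4% and 1.27%. The other shares, in the same order, were 0.333%, 0.582% and 0.368% for TCAAGGTCA, the site of ESRRB and its relatives, and 0.873%, 0.524% and 0.978% for TTCCNGGAA, a STAT site. TCACNCCAC, a sterol response element, was found for 1.46%, 1.57% and 1.09%, AACCNGGTT, a grainyhead site, for 0.208%, 0.291% and 0.243%, and the palindrome TCACGTGA for 0.457%, 0.931% and 1.02%. These are descriptions of the genes in hand, with no test.

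The gastruloid libraries place some of these levels in context. Early gastruloids, made straight from naïve ESCs, had a mean of 387 CPM for Nanog, 529.7 for Esrrb and 680.5 for Tdh, between the naïve and EpiLC levels. For Otx2 their mean of 138 CPM was above the 127 and 116 of EpiLCs, while Pou3f1, at 22.1 CPM, and Dnmt3b, at 581, were well below the EpiLC libraries. In late gastruloids Sox4 had a mean of 404 CPM and Sox11 one of 457, above the EpiLC levels of 74.1 and 75.1 and of 31.9 and 42.2, and Pim2 had 54.3. No difference between EpiLCs and gastruloids was tested here.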

How the data were processed

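RNA-seq of 2 naïve ESC and 2 EpiLC libraries of mouse E14 cells was analysed, with 4 gastruloid libraries in the same fit. The authors isolated polyadenylated RNA, used Trimmomatic 0.39 for trimming and STAR for alignment to GRCm39, then counted with featureCounts at its defaults, which leave out reads with several alignments and ignore strand, so overlapping genes and near-identical copies are uncertain. The deposited values are whole-number read counts per gene, not normalized. The annotation release and the read configuration of each library are not given in the sources used here. The human counts were not used here, and 0 columns were left unmapped.

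Genes were kept by filterByExpr on the 4 libraries, normalized by TMM and tested with edgeR 4.0.16 (glmQLFit, glmQLFTest, R 4.3.3) in 1 fit of the 8 mouse libraries with 1 coefficient per group. The limits for DETs were 0.05 for p adjusted by Benjamini-Hochberg and 1 for the size of the log2 fold change. CPM used TMM-scaled totals, and TPM the exon lengths in the deposited table. Symbols and starts came from GENCODE M39, in which 29486 of 29720 genes were found by identifier, and promoter bases from GRCm39 with samtools 1.23.1. Ratios against 0 counts were computed against 3 counts per library. Alternatives were DESeq2 1.42.0, other scaling, filters, thresholds and depth, a replicate block and leaving out each library.

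Named genes were the 10 largest rises and falls among DETs whose higher group averaged 10 CPM or more, whose lower group had a library with over 3 counts and whose groups did not overlap, the 10 largest gains and losses of TPM, and members of the gene lists. Jam2, Car4, Tmem54, Enpp2, Spic, the MHC class I group and the families among the additional observations were picked with their values in view, as were the motifs searched. The members and lists were chosen with earlier results of these data known, so the counts by list are descriptions and no set was tested. A few genes are not reported here by name.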

Additional observations from a re-analysis of the deposited data

How the results depend on the processing

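Across the 15 alternatives to the test described, no DET changed direction. The 40 genes named for the size of their change kept their call in each alternative that tested them. Since they were picked for large changes, their calls say little about genes near the limits. DESeq2 gave 2305 higher and 1631 lower genes, size factors from DESeq2 in edgeR 2434 and 1698, the 4 libraries alone 2411 and 1725, libraries thinned to the smallest 2373 and 1711, a filter on all 8 libraries 2651 and 1814, and a test against a 2-fold change 1811 and 1238. Requiring 10 counts in each of the 4 libraries left 11336 genes, which removes genes near 0 in 1 group, and gave 1242 higher and 1095 lower (53.1% higher). Adjusted p alone gave 4857 and 4745 (50.6% higher). The share of rises was 62.4% with upper quartile scaling and 59.8% with no filter. Leaving out 1 library at a time gave 2258 to 2383 higher genes, 1663 to 1746 lower genes and shares of 56.4% to 58.3%. Of the counts by list, 672 were within 1.5 times of the values given, while 22 were larger, 26 smaller and 8 otherwise moved.

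Libraries of the groups share a replicate number, and the deviations of same-numbered libraries from their group means had a correlation of -0.034 over genes. Counting error in genes with few counts weakens such a correlation, so it cannot decide whether the numbers pair the libraries. With the replicate block there were 2401 higher and 1726 lower DETs, 58.2% of them higher. With 2 libraries a group, the depth of the smallest limits genes under about 0.437 CPM. The use of 1 cell line and of 1 batch for each group's replicates limits how far the values carry.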

Other observations

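Gene families that no list above covers were counted by symbol after the values were seen, with no test. Connexins, which build gap junctions, were all called (100%, against 30.3% of all genes), with 6 lower and 2 higher of 8. Gjb5 fell from 52.9 CPM in both libraries to 3.94 and 2.53, while Gja1, or connexin 43, rose from 81.4 and 83.7 to 304 and 317. Of 22 collagen chains, 14 rose and 3 fell (77.3% called, against 30.3% of all genes), though 14 of the 22 were under 5 CPM in each library. Col18a1, a basement membrane collagen, rose from 496 and 506 CPM to 1244 and 1325, and Col4a1 rose from 6.61 and 5.9 to 18.7 and 24.1.

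Ephrins and their receptors split, with 7 higher and 6 lower of 19 (68.4% called, against 30.3% of all genes). Translation genes stood still by comparison. Of 83 cytosolic ribosomal protein genes 0 rose and 1 fell (1.2% called). Of 78 mitochondrial ribosomal protein genes 1 rose and 0 fell (1.28% called, against 30.3% of all genes). Among non-coding RNAs, 141 lncRNA genes rose, 99 fell and 256 were not called. Over all genes tested, these counts were 2408, 1725 and 9490. The imprinted gene Meg3 rose from 7.44 and 3.96 CPM to 44.5 and 55.9, and the imprinted Peg10 from 19.6 and 17.6 to 134 and 155.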
